A study of Bos taurus with 6 samples.

Results

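Neuropilins, semaphorins, plexins, Eph receptors and ephrins are cell surface and secreted proteins that guide cell and axon movement. They were followed here in cattle that had or had not been superstimulated, that is, given gonadotropins so that more ovarian follicles than usual develop together. The members were all probes whose symbol in the array's annotation was NRP1 or NRP2 or named a semaphorin, plexin, Eph receptor or ephrin. This gave 55 probes for 49 genes, of 43794 probes on the array: 4 probes for 2 neuropilins, 21 for 19 semaphorins, 8 for 8 plexins, 12 for 12 Eph receptors and 10 for 8 ephrins. The array names 15220 genes. The rule used symbols and no measured value, but it was set with earlier results of these data known.

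RNA of 3 superstimulated cows (group 1) and 3 non-superstimulated cows (group 4) was compared on 6 two-colour arrays. Each array carried 1 cow of each group with the same number, and each pair of cows was repeated with the dyes exchanged, so a pair was 1 replicate. Per the labels, all cows were multiparous beef cattle, the samples were dissected and snap frozen, and gonadotropins were the ovarian stimulation of both groups, the non-superstimulated cows included. The labels used here name no tissue, dose or time. Arrays 1 to 3, with the superstimulated cow in Cy5, lay on 1 slide, and arrays 4 to 6, with the dyes exchanged, on another.

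The sources disagree on which way the ratios run. In the dye fields, Cy5 on arrays 1 to 3 belongs to the superstimulated cow, whereas the worked example in the design description gives that cow Cy3. Reading them by the example would turn every sign and exchange the group names beside every level. All values follow the dye fields, and "higher" and "lower" mean superstimulated relative to non-superstimulated on that scale. A ratio is a log2 value, so -1 is a 2-fold lower intensity.

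Of the granulosa cell markers, FSHR, CYP19A1, AMH, INHBA, INHA and GJA1 exceeded the negative control spots in all 12 channel readings (2 dyes on 6 arrays), while FOXL2, a transcription factor of these cells, did so in none. HSD17B1, the other granulosa marker, did so in 2 of 6 superstimulated and 1 of 6 non-superstimulated readings. Of 7 theca and stroma markers, 6 exceeded the negative controls in all 12 readings. So did 2 of 6 smooth muscle and pericyte markers and 2 of 7 leukocyte markers. Of the 5 markers of neurons and glia on the array, 3 did. None of 8 endothelial markers exceeded the negative controls in all 12 readings, and PECAM1 did so in none. Which tissue was sampled was not tested. Median spot intensity was 151 to 298 in red and 160 to 282 in green. Of all probes, 47.3% to 63.2% exceeded the negative controls in red and 65.4% to 71.2% in green. Precision is limited by the 3 pairs of cows.

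Neuropilins are co-receptors with short cytoplasmic tails. NRP1 binds class 3 semaphorins and forms of VEGFA, and NRP2 binds class 3 semaphorins and VEGFC. The secreted class 3 semaphorins mostly signal through a neuropilin joined to an A-type plexin, whereas membrane-bound semaphorins bind plexins directly. Eph receptors are tyrosine kinases, and their ephrin ligands sit on neighbouring cells, the A type by a lipid anchor and the B type by a transmembrane segment. In the ovary these proteins are known mainly from blood vessels and from contacts between follicle cells.

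Detection set how much could be read. Of the 55 probes, 41 were tested because in either dye, on 3 or more of the 6 arrays, they exceeded the 95th percentile of the negative controls. These covered 38 genes. Of them, 17 probes exceeded it in all 12 readings: 1 for NRP1, 10 for semaphorins, 4 for Eph receptors, 2 for ephrins and 0 for plexins. The semaphorin probes were those of SEMA3B, SEMA3F, SEMA4B, SEMA4F, SEMA4G, SEMA5A, SEMA6B and SEMA6C and 2 of SEMA6D.

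The plexins, the receptors through which most semaphorins act, were the family least often detected. Only PLXNA3, PLXNB2 and PLXNB3 were tested, and PLXNA1, PLXNA2, PLXNA4, PLXNC1 and PLXND1 were not. PLXNA1 and PLXNA4 exceeded the negative controls in 0 of 12 readings. So did EPHA4, EPHB6, EFNA3 and the third, dimmest NRP1 probe. SEMA4A, SEMA4C and EPHA8 did so in 1 reading each. A dim probe limits what can be said of its gene, and a probe not above the negative controls does not show that the gene was off.

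**Figure D1:**
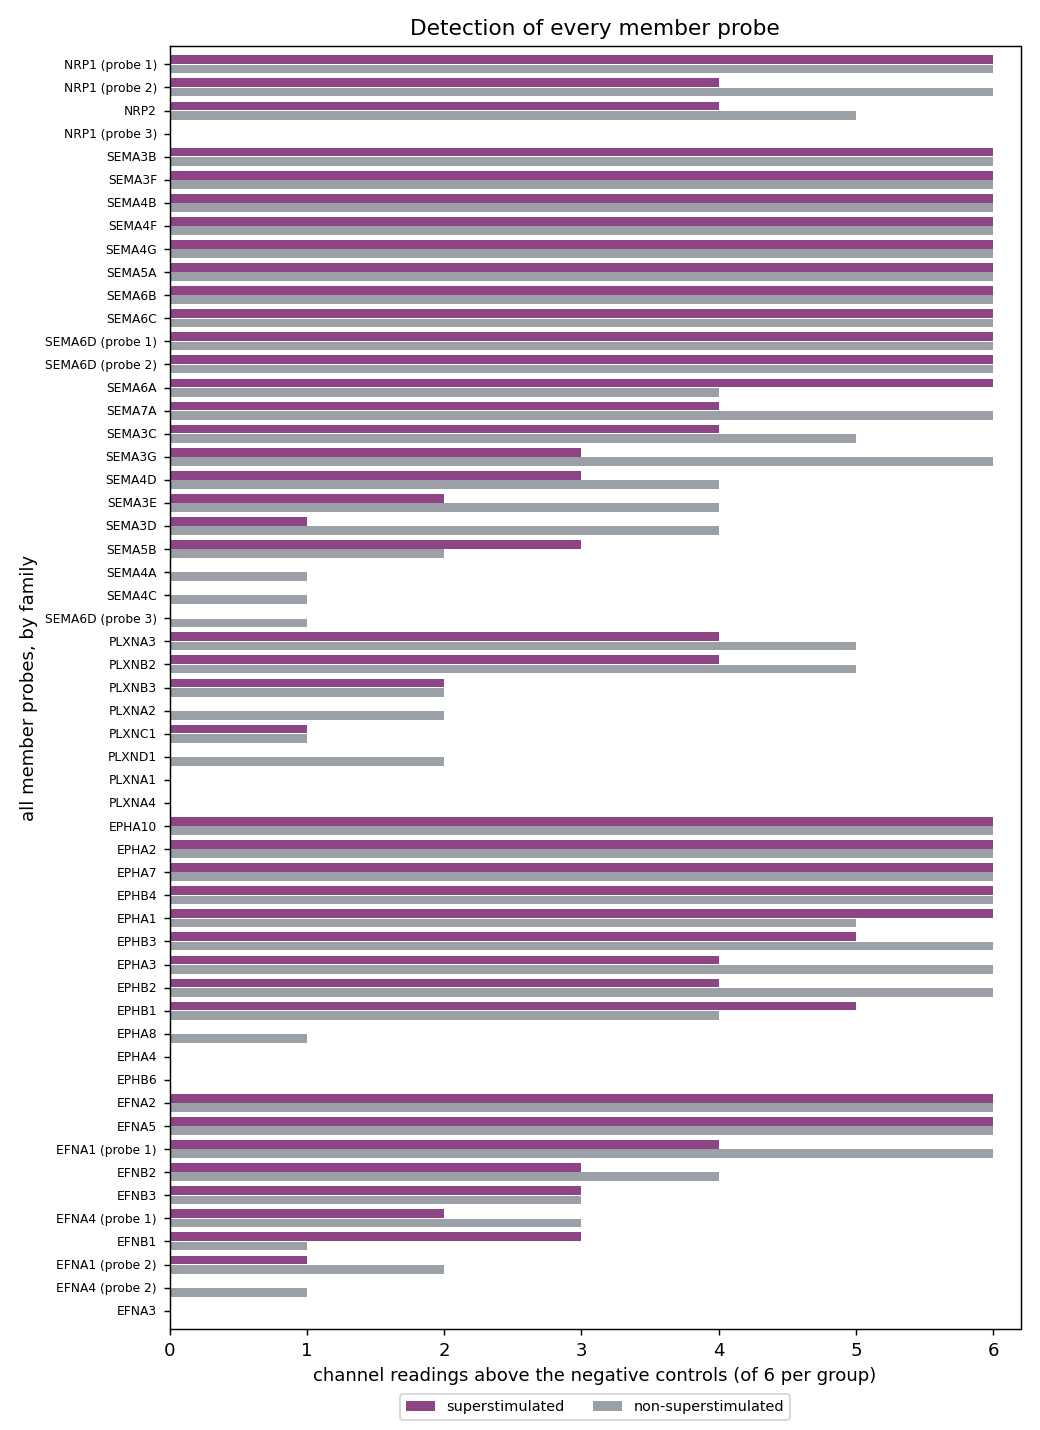
Number of channel readings above the negative control spots (x axis, of 6 per group) for each of the 55 member probes (y axis, by family), with a bar for superstimulated and 1 for non-superstimulated cows. The semaphorins hold 10 of the 17 probes that reach 6 in both groups, and no plexin reaches 6.

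No member differed between superstimulated and non-superstimulated cows after adjustment over all probes. limma called 0 of 31957 probes at an adjusted p of 0.05 (0% called), and the lowest adjusted p was 0.999. At an unadjusted p under 0.05 limma gave 3 of the 41 member probes, against 3.25% of all probes tested (1040 probes). They were NRP1 and SEMA4F, both lower (1.74% of all probes), and EFNA5, which was higher (1.52%). With 3 pairs an exact sign test cannot go below p = 0.25. The 41 are those that passed the filter on dim probes, not all members.

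The median ratio of the 41 probes was -0.03, with 17 higher and 24 lower, against a median of -0.01 over all probes tested. By pair the members' medians were 0.03, -0.06 and -0.10 in pairs 1, 2 and 3. Most members lay near 0: the median size of the mean ratio was 0.08 for members and 0.09 for all probes. In all 3 pairs 9 member probes kept 1 sign, against 22.4% of all probes, and on all 6 arrays 4 did, against 5.5%. These 4 were both tested probes of NRP1, SEMA4F and EFNA5.

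**Figure D2:**
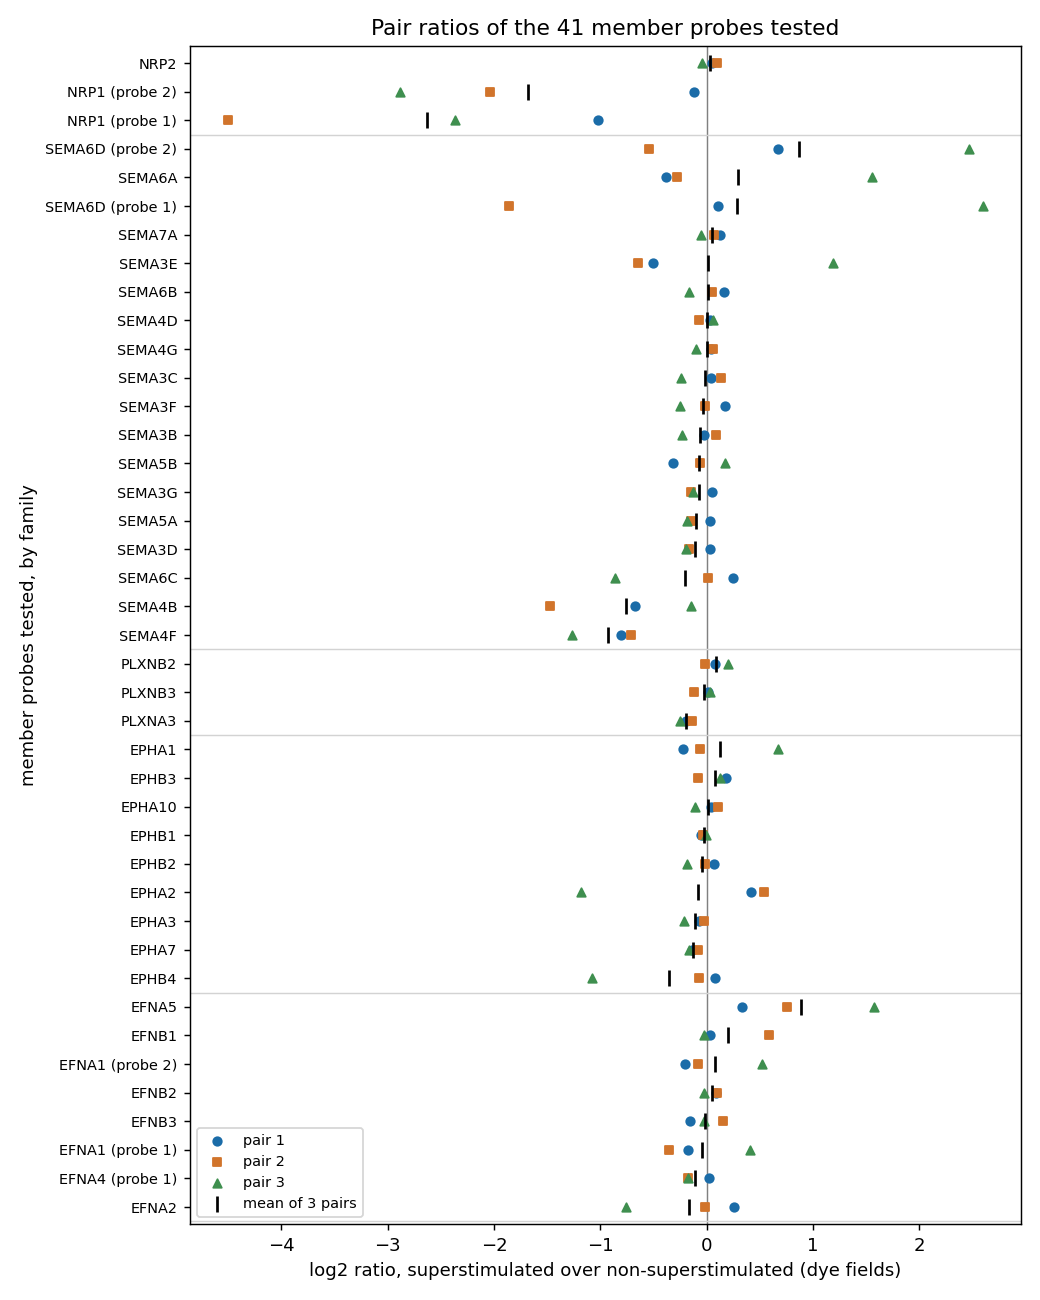
Log2 ratio of superstimulated over non-superstimulated intensity (x axis) in each of 3 cow pairs, with their mean, for the 41 member probes tested (y axis, by family). Most points lie near 0; NRP1 lies farthest to the left, and SEMA6D has pair 2 left and pair 3 right of 0.

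NRP1 had the most negative ratios of the family. On its brightest probe (EMBV3_30117) the log2 intensity was 11.86, 8.12 and 11.25 in superstimulated cows 1, 2 and 3, against 12.88, 12.62 and 13.62 in non-superstimulated cows. Every superstimulated cow lay below every non-superstimulated one, and superstimulated cow 2 stood lowest by far. The pair ratios were -1.02, -4.51 and -2.37, with a mean of -2.63 ± 1.76 (SD, n = 3 pairs) and a 95% interval of -4.99 to -0.27 by limma. Among all 31957 probes this mean ratio ranked 3 from the low end. The unadjusted p was 0.037 and the adjusted p 0.999 by limma. Without pair 2 the mean was -1.69.

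The next NRP1 probe (EMBV3_11450) was also lower in each pair, by other amounts. Its log2 intensity was 8.33, 6.86 and 8.41 in superstimulated cows, against 8.44, 8.90 and 11.29 in non-superstimulated cows. Here the groups again did not overlap, but only narrowly, with superstimulated cow 3 at 8.41 and non-superstimulated cow 1 at 8.44. The 2 cows of pair 1 were 0.11 apart, and the outlying value was the high level of non-superstimulated cow 3. The ratios were -0.11, -2.04 and -2.88, with a mean of -1.68 ± 1.42 (SD, n = 3 pairs) and an interval of -3.59 to 0.23. Without pair 3 the mean was -1.08. The probe exceeded the negative controls in 4 of 6 superstimulated readings, with 0 of 2 in cow 2, and in all 6 non-superstimulated readings, so the pair 2 level of the superstimulated cow is not well measured. The dimmest NRP1 probe (EMBV3_10439) had 0 of 12 readings above the negative controls and was not tested. No sequence of these probes was used here, so where in the transcript each lies is not known.

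Both tested NRP1 probes gave close values on the 2 arrays of each swap. The brightest had -1.19 and -0.85 in pair 1, -4.57 and -4.44 in pair 2 and -2.37 and -2.37 in pair 3, the array with the superstimulated cow in Cy5 first. The dye part, the share of a ratio that turned with the dyes, was -0.08 for it and -0.04 for the other. In the authors' deposited log2 values, turned the same way, the pair means were -1.22, -4.39 and -2.48 for the brightest probe and -0.13, -2.03 and -3.06 for the other.

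In bulk samples, fewer cells of a type and less RNA per cell cannot be told apart. Markers of cell types that such a sample could hold are given beside NRP1, with their summed linear intensity. The sum of 8 endothelial markers was 1028 to 1050 in superstimulated and 1020 to 1101 in non-superstimulated cows, but these probes lay near the negative controls, where a sum shows little. Of the 5 tested, 1 was higher and 4 were lower. VWF, a clotting protein of endothelium, exceeded the negative controls in 0 of 6 superstimulated and 5 of 6 non-superstimulated readings. Its ratios were small, at -0.12, 0.0034 and -0.21, and none passed limma's test against the swap error. TEK, the angiopoietin receptor, had ratios of -0.44, -0.44 and 0.12 and passed that test in pairs 1 and 2, where it was lower. CLDN5, the 1 with a higher mean ratio, had 0.07, 0.32 and 0.07 and passed it in pair 2.

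Smooth muscle markers ran both ways. The sum of 6 smooth muscle and pericyte markers was 4216 to 5500 in superstimulated and 4883 to 9281 in non-superstimulated cows, and of the 5 tested 2 were higher and 3 lower. MYH11, the smooth muscle myosin heavy chain, had ratios of -0.92, -1.10 and -4.25 and exceeded the negative controls in 3 of 6 superstimulated and 5 of 6 non-superstimulated readings. CNN1, a calponin of smooth muscle, had 0.25, 3.09 and 0.54. The sum of 7 theca and stroma markers was 9890 to 27432 in superstimulated and 2702 to 7393 in non-superstimulated cows, with 6 higher and 1 lower by the mean ratio.

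LUM, a matrix proteoglycan, was the brightest of that list in superstimulated cows 2 and 3, with levels of 14.62 and 14.33, and its ratios were -0.06, 4.02 and 4.38. The list's median ratio in pair 3 was -0.08, with PDGFRA at -1.11, COL1A1 at -0.25, INSL3 at -0.26 and CYP17A1 at -0.08. COL3A1 was at 3.10 and DCN at 0.30 in that pair. Against the swap error there, limma passed COL3A1, DCN and LUM as higher and PDGFRA as lower. INSL3, a theca hormone, was below 0 in all 3 pairs. The sum of 8 granulosa markers was 77321 to 96021 in superstimulated and 51823 to 90797 in non-superstimulated cows, and INHBA, INHA and GJA1 were its brightest members. Of the 7 tested, 4 were higher and 3 lower. FSHR, the receptor of follicle stimulating hormone, had -0.18, -0.72 and -0.67, and its unadjusted p of 0.031 by limma was the only one under 0.05 in these lists.

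The sum of 7 leukocyte markers was 3145 to 3604 in superstimulated and 2806 to 6540 in non-superstimulated cows, with 3 higher and 1 lower of 4 tested. The higher ones had mean ratios of 0.25 (CD68), 0.03 (CD3E) and 0.01 (AIF1). PTPRC, the lower one and the brightest of the list, had ratios of 0.22, 0.004 and -1.02. Its level was 12.54 in non-superstimulated cow 3. CSF1R, ITGAM and LYZ exceeded the negative controls in none of 12 readings. The sum of the 5 markers of neurons and glia on the array was 2614 to 9686 in superstimulated and 2049 to 3815 in non-superstimulated cows. All 3 tested were higher by the mean ratio, and SOX10 exceeded the negative controls in none of 12 readings. The part of these markers in the NRP1 ratio was not tested.

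NRP2 was dim and its levels overlapped. Its log2 intensity was 7.04, 7.18 and 7.17 in superstimulated cows, against 6.99, 7.08 and 7.21 in non-superstimulated cows. It exceeded the negative controls in 4 of 6 superstimulated and 5 of 6 non-superstimulated readings. The mean ratio was 0.04 ± 0.07 (SD, n = 3 pairs), with an interval of -0.18 to 0.25.

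**Figure D3:**
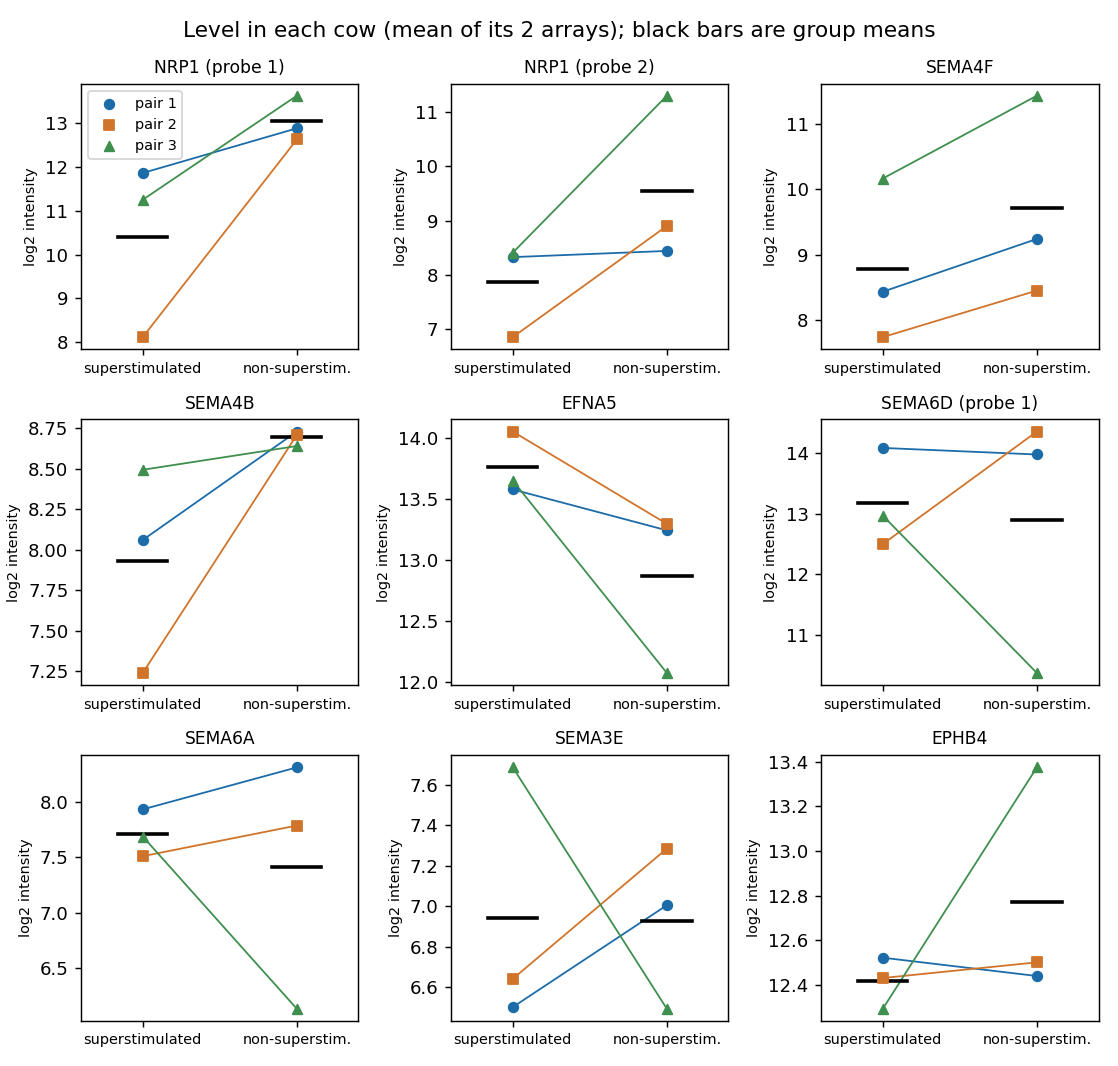
Log2 intensity (y axis) of 9 member probes in each superstimulated and non-superstimulated cow, with a line joining the cows of a pair and a black bar for each group mean. Both NRP1 probes, SEMA4B and EFNA5 have groups that do not overlap, SEMA4F runs the same way in each pair although its groups overlap, and SEMA6D, SEMA6A and SEMA3E have pair 3 running opposite to pair 2.

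Among the semaphorins, SEMA4F, a membrane-bound protein of class 4, was lower in each pair by similar amounts. Its log2 intensity was 8.44, 7.75 and 10.16 in superstimulated cows, against 9.24, 8.46 and 11.43 in non-superstimulated cows. The groups overlapped because both cows of pair 3 were bright, but within each pair the superstimulated cow was lower. The ratios were -0.81, -0.71 and -1.26, with a mean of -0.93 ± 0.30 (SD, n = 3 pairs), which is 0.526-fold, and an interval of -1.37 to -0.49. Its unadjusted p of 0.0057 ranked 81 among all probes by limma, and its adjusted p was 0.999. The 6 arrays ranged from -1.58 to -0.66.

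SEMA4B, another membrane-bound class 4 semaphorin, was lower in each pair by uneven amounts. Its log2 intensity was 8.06, 7.24 and 8.49 in superstimulated cows, against 8.73, 8.71 and 8.64 in non-superstimulated cows. The non-superstimulated cows were alike, the superstimulated cows were spread out, and the groups did not overlap. The ratios were -0.67, -1.47 and -0.15, with a mean of -0.76 ± 0.67 (SD, n = 3 pairs), and -0.41 without pair 2. In pair 3 the 2 arrays of the swap had opposite signs, -0.38 and 0.09.

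Levels of the 3 cows in each group did not overlap for 5 of the 41 member probes, against 5.35% of all probes tested. With the superstimulated cows lower there were 4 of the 41, against 2.77% of all probes tested. Beside the 2 NRP1 probes, SEMA4B and EFNA5, the fifth was PLXNA3, a dim A-type plexin. Its ratios in pairs 1, 2 and 3 were -0.36, -0.30 and -0.55 on slide 1, but -0.02, 0.03 and 0.04 on slide 2.

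SEMA6D, a membrane-bound class 6 semaphorin known to bind PLXNA1, was bright and ran opposite ways in pairs 2 and 3. On its brightest probe (EMBV3_38886) the log2 intensity was 14.08, 12.50 and 12.97 in superstimulated cows, against 13.98, 14.36 and 10.37 in non-superstimulated cows. Non-superstimulated cow 3 was the lowest of all 6 cows and the groups overlapped. The ratios were 0.11, -1.86 and 2.60, with a mean of 0.28 ± 2.23 (SD, n = 3 pairs). The next probe (EMBV3_29972) had 12.57, 12.24 and 11.54 in superstimulated cows, against 11.90, 12.79 and 9.07 in non-superstimulated cows. It too was lowest in non-superstimulated cow 3, and its ratios of 0.67, -0.54 and 2.47 had the same signs. In pair 1, however, the brightest probe had opposite signs on its 2 arrays, -0.03 and 0.25. In the deposited values its pair 1 mean was -0.35, against 0.64 for the next probe. By the range between its pair ratios the brightest probe ranked 164 among all 31957 probes. The third SEMA6D probe exceeded the negative controls in 1 of 12 readings and was not tested.

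SEMA6A, of the same class, was also lowest in non-superstimulated cow 3. Its log2 intensity was 7.93, 7.51 and 7.69 in superstimulated cows, against 8.31, 7.79 and 6.13 in non-superstimulated cows. That cow had 0 of 2 readings above the negative controls, and every other cow had 2 of 2. The ratios were -0.38, -0.28 and 1.56.

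SEMA3E, a secreted semaphorin that binds PLXND1 without a neuropilin, turned round in pair 3 as well. Its log2 intensity was 6.50, 6.64 and 7.68 in superstimulated cows, against 7.00, 7.28 and 6.49 in non-superstimulated cows. It exceeded the negative controls in both readings of superstimulated cow 3 and of non-superstimulated cows 1 and 2, and in no other. The cows above the negative controls were therefore of opposite groups in pair 3 and in pairs 1 and 2. The ratios were -0.50, -0.64 and 1.19.

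SEMA6C, also of class 6, had 9.59, 9.18 and 9.60 in superstimulated cows, against 9.33, 9.17 and 10.47 in non-superstimulated cows. It was high in non-superstimulated cow 3 only, with ratios of 0.25, 0.02 and -0.86. The other 11 semaphorins tested, SEMA3B, SEMA3C, SEMA3D, SEMA3F, SEMA3G, SEMA4D, SEMA4G, SEMA5A, SEMA5B, SEMA6B and SEMA7A, had mean ratios of -0.11 to 0.05 and pair ratios of -0.32 to 0.17. They include the 5 class 3 semaphorins whose usual co-receptors are the neuropilins. Of those, only SEMA3B and SEMA3F exceeded the negative controls in all 12 readings.

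The 3 plexins tested had small ratios on dim probes. PLXNA3, a partner of the neuropilins, had 7.07, 7.12 and 7.06 in superstimulated cows, against 7.26, 7.26 and 7.32 in non-superstimulated cows. Its ratio was -0.19 ± 0.06 (SD, n = 3 pairs), with an interval of -0.40 to 0.01, and the dye part was -0.21. PLXNB2 and PLXNB3, receptors of class 4 semaphorins and SEMA5A, had 0.09 ± 0.11 and -0.03 ± 0.08 (SD, n = 3 pairs). PLXNA3 and PLXNB2 each exceeded the negative controls in 4 of 6 superstimulated and 5 of 6 non-superstimulated readings, and PLXNB3 in 2 of 6 of each group.

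Among the Eph receptors, EPHB4 and EPHA2 were the bright ones with a wide pair ratio. EPHB4, the receptor of EFNB2 known from veins, had 12.52, 12.43 and 12.29 in superstimulated cows, against 12.44, 12.50 and 13.37 in non-superstimulated cows. Of the 6 levels, 5 lay close together, and that of non-superstimulated cow 3 was higher. The ratios were 0.08, -0.07 and -1.08, with a mean of -0.36 ± 0.63 (SD, n = 3 pairs), and 0.0059 without pair 3. EPHA2, a receptor of EFNA1, had 9.04, 9.42 and 9.74 in superstimulated cows, against 8.63, 8.88 and 10.93 in non-superstimulated cows. It too was highest in non-superstimulated cow 3, and its ratios were 0.42, 0.54 and -1.19.

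The remaining Eph receptors had mean ratios close to 0. EPHA1 had 7.48, 7.69 and 7.84 in superstimulated cows, against 7.70, 7.75 and 7.18 in non-superstimulated cows, with a mean ratio of 0.13 ± 0.48 (SD, n = 3 pairs). Its dye part of -0.60 was larger than that ratio, and the 6 arrays ranged from -0.69 to 1.71. EPHA3, EPHB2 and EPHB3 had -0.11 ± 0.10, -0.04 ± 0.13 and 0.08 ± 0.14 (SD, n = 3 pairs). EPHA7, EPHA10 and EPHB1 had mean ratios of -0.13, 0.02 and -0.03. EPHA7, bright enough to be read in all 12 readings, had -0.14, -0.08 and -0.17 in pairs 1, 2 and 3. These are small, and none passed limma's test against the swap error. Its 2 arrays in pair 3 had opposite signs, 0.09 and -0.43.

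Among the ephrins, EFNA5 was bright and higher in each pair. EFNA5, a lipid-anchored ligand of EphA receptors, had a log2 intensity of 13.58, 14.05 and 13.65 in superstimulated cows, against 13.24, 13.29 and 12.08 in non-superstimulated cows. The groups did not overlap, and non-superstimulated cow 3 was the lowest. The ratios were 0.33, 0.75 and 1.57, with a mean of 0.89 ± 0.63 (SD, n = 3 pairs), which is 1.85-fold, and an interval of 0.02 to 1.75. All 6 arrays were above 0, from 0.29 to 1.69, and the dye part was 0.04. By limma the unadjusted p was 0.047 and the adjusted p 0.999. Without pair 3 the mean was 0.54.

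EFNA2, of the same type, was also high in non-superstimulated cow 3 alone. It had 14.24, 14.21 and 14.27 in superstimulated cows, against 13.98, 14.22 and 15.02 in non-superstimulated cows, and ratios of 0.26, -0.01 and -0.76. EFNA1 differed between pairs more than between groups. On its brighter probe (EMBV3_16476) it had 6.94, 7.06 and 8.94 in superstimulated cows, against 7.11, 7.42 and 8.53 in non-superstimulated cows. Both cows of pair 3 were bright, and since the cows of a pair shared their arrays, an animal and an array effect cannot be told apart there. Its ratios were -0.17, -0.35 and 0.41, and those of its other probe -0.20, -0.08 and 0.52.

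EFNB1, a transmembrane ligand, had 6.75, 7.21 and 6.49 in superstimulated cows, against 6.72, 6.63 and 6.51 in non-superstimulated cows. It stood out in superstimulated cow 2, with both readings above the negative controls, and its ratios were 0.03, 0.59 and -0.03. EFNB2, the ligand of EPHB4, had a mean ratio of 0.05, and EFNB3 one of -0.01. EFNA4 had -0.11 on its tested probe. These 3 exceeded the negative controls in 2 to 3 of 6 superstimulated and 3 to 4 of 6 non-superstimulated readings.

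Within single pairs, more members stood apart. Here limma set each pair ratio against the disagreement between the 2 arrays of a swap. That error is technical, so a call concerns the 2 RNA extracts of a pair and no other cows. In pair 1, 4 member probes passed an adjusted p of 0.05, against 6.92% of all probes. In pair 2 there were 9, against 27.4%, and in pair 3 there were 14, against 37.5%. These counts lie near the background shares. In pair 1, 1 was higher (2.65% of all probes) and 3 were lower (4.27%). In pair 2, 2 were higher (12.5%) and 7 lower (14.9%). In pair 3, 7 were higher (21.4%) and 7 lower (16.1%). All Eph receptor calls came from pair 3, where EPHA2 and EPHB4 were lower. No plexin passed in any pair.

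All 3 pairs passed that test with 1 sign for 2 member probes, against 0.845% of all probes. These were the brightest NRP1 probe and SEMA4F, both lower, as were 0.504% of all probes. SEMA3E and the second SEMA6D probe also passed in all 3 pairs, but with mixed signs. EFNA5 passed in pairs 2 and 3, and the second NRP1 probe passed in the same pairs.

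The ratio differed between pairs for 15 member probes by limma's F test, against 40.3% of all probes. They were 2 of NRP1, 6 of semaphorins, 2 of Eph receptors and 5 of ephrins. SEMA4F was not among them (adjusted p = 0.096), which does not show that its ratio was equal in all pairs. A ratio of at least 2-fold in 1 or more pairs was seen for 11 member probes, against 15.3% of all probes.

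Dye and slide changed together, so their effects cannot be told apart. The ratio followed the dye for 14 member probes by limma at an adjusted p of 0.05, against 35.1% of all probes. Among them were bright probes that were high in non-superstimulated cow 3: SEMA6C, EPHA2, EPHB4 and EFNA2 had dye parts of 0.46, 0.43, 0.32 and 0.35. In pair 3 their ratios were -0.16, -0.40, -0.50 and -0.27 on slide 1, and -1.57, -1.97, -1.66 and -1.24 on slide 2. The sign held on both slides while the size did not. NRP1, SEMA4F, SEMA4B, EFNA5, SEMA6D and SEMA3E were not among the 14.

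Across all 41 probes the sign agreed on both arrays of a swap for 21 in pair 1, 19 in pair 2 and 20 in pair 3, against 44.1%, 54% and 57.3% of all probes.

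**Figure D4:**
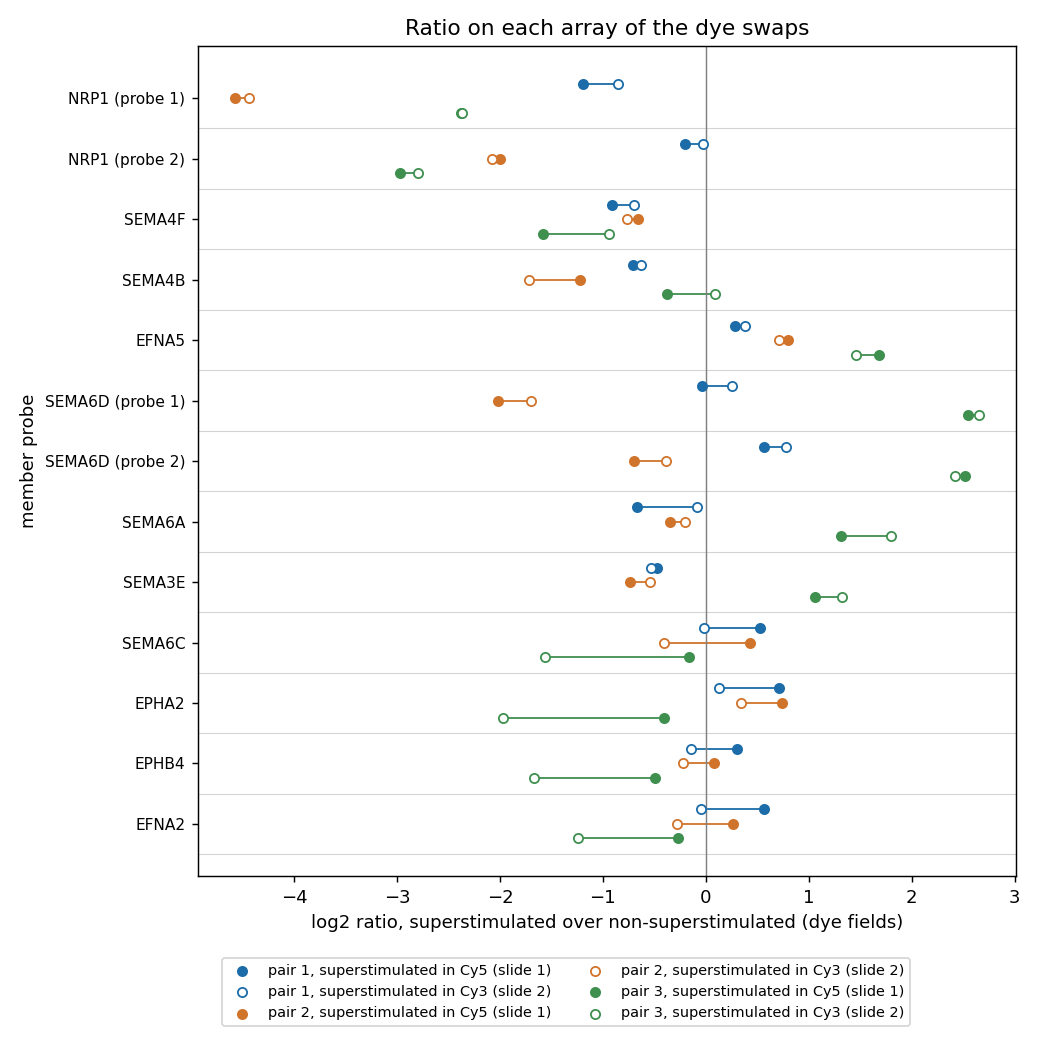
Log2 ratio of superstimulated over non-superstimulated intensity (x axis) on each of 6 arrays for 13 member probes (y axis), with filled points for the superstimulated cow in Cy5 on slide 1, open points for Cy3 on slide 2 and a line joining the 2 arrays of a pair. The lines are short for NRP1, EFNA5 and SEMA6D, and long in pair 3 for SEMA6C, EPHA2, EPHB4 and EFNA2.

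Genes around these receptors were read from a list of 77 genes, of which 69 were on the array and 55 were tested on their brightest probe. limma called 0 of them at an adjusted p of 0.05 and 1 at an unadjusted p under 0.05. Their median ratio was 0.02, with 29 higher and 26 lower. Of the co-receptors and shared ligands 4 were higher and 4 lower, of the semaphorin and plexin effectors 10 and 10, of the Eph and ephrin effectors 10 and 7, and of the other guidance families 5 and 5.

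The gene with the smallest p was INPPL1, the lipid phosphatase SHIP2 that binds EPHA2. It had ratios of -0.22, -0.24 and -0.42, and limma's unadjusted p was 0.029. None of these ratios passed limma's test against the swap error. GRB2, an adaptor of receptor tyrosine kinases, had 0.09, 0.33 and 0.71, although its other probe had a mean of 0.05. NTN4, a secreted netrin of basement membranes, had 0.005, -1.23 and -1.94. FARP1, an exchange factor that binds A-type plexins, had 0.08, -0.91 and -0.66, and its 3 other tested probes had means of -0.32 to 0.03.

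Genes that share ligands with the neuropilins had no common direction. VEGFA, which binds NRP1, had ratios of -0.04, 0.08 and 0.25 and exceeded the negative controls in 5 of 6 readings of each group. PGF, another ligand of NRP1, had 0.59, -2.78 and -1.03. VEGFB, of the same list, had 0.17, -0.49 and -0.87. Of the 8 co-receptors and shared ligands tested, 1 passed against the swap error as higher and 0 as lower in pair 1. The shares of all probes were 2.65% and 4.27%. In pair 2, 2 passed as higher and 2 as lower, against 12.5% and 14.9% of all probes. In pair 3, 1 passed as higher and 4 as lower, against 21.4% and 16.1%. VEGFB was among the lower in pairs 2 and 3. KDR, the VEGFA receptor that pairs with NRP1, had 0.0049, 0.70 and -0.40 with 4 of 6 superstimulated and 3 of 6 non-superstimulated readings above the negative controls. FLT1 exceeded them in none of 12 readings. VEGFC, a ligand of NRP2, had -0.36, 0.57 and 0.89, and its receptor FLT4 had -0.04, 0.06 and -0.19. VEGFA, PGF, VEGFB, KDR, FLT1, VEGFC and FLT4 were chosen for their known binding partners and not by the rule for named genes.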

How the data were processed

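Per the file headers, the deposited scanner files give each spot an intensity and a surrounding background in both dyes, with no subtraction made. Per the labels' protocols, RNA was amplified in 2 rounds before labelling, which can distort levels. The authors also deposited log2 values whose normalization is unstated. Against the loess ratios computed here they correlated, array by array, at 0.695 to 0.834 (at most 0.335 with another), and were read as red over green. Their column medians were -0.0043, -0.0115, -0.0348, -0.011, -0.0063 and -0.008.

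Of 45220 spots, 8 without a name and 42 marked as ignored were left out, which left 43753 probes beside 1417 control spots. Background correction was by normexp (offset 50) from foreground means and background medians, followed by loess within each array, controls at weight 0, with R 4.3.3 and limma 3.58.1. The filter on dim probes, set by 756 negative control spots, left 31957. Ratios were turned by the dye fields and averaged over a swap. lmFit and eBayes tested whether 3 pair values averaged 0, with Benjamini-Hochberg adjustment over all probes. Single pairs, differences between pairs and the dye came from 1 model of 6 arrays with pair and dye terms and 2 residual degrees of freedom. Levels per cow are separate channels after loess and Aquantile, averaged over its 2 arrays, and a marker sum adds them on a linear scale.

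Per the design text the 3 replicates of a group are different animals. Symbols came from the platform annotation, and all 49 member symbols were found in a RefSeq gene table of ARS-UCD2.0. No coordinates were used. A gene is its brightest probe. The rule for named genes took NRP1, NRP2 and up to 6 tested genes per family with the largest pair ratio, and 4 genes around the pathway with the smallest p. Members, lists and rule were chosen with earlier results of these data known. Steps were tested on simulated data. Figures used Python 3.11.15 and matplotlib 3.10.9.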

Additional observations from a re-analysis of the deposited data

How the results depend on the processing

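At an adjusted p of 0.05 limma called 0 probes under every alternative but 2: 2 probes with the pair as a random replicate block of 6 arrays, and 8 with the 6 arrays as independent, which counts each swap as 2 replicates. None of the 26 named member probes was among them. Their lowest adjusted p by limma was 0.125, for SEMA4F with independent arrays, against 0.226 with the block. Adjusted p values of the other tested members were not followed under the alternatives. Deviations of same-numbered cows from their group means correlated across probes at 0.20, 0.05 and 0.30, and others with -0.28 to 0.25; same-numbered cows shared arrays, so this does not show whether animals were matched. Leaving out a pair gave 0 to 0 probes called and member medians of -0.044 to -0.019.

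The 3 member probes at an unadjusted p under 0.05 became 5 in the deposited values, 1 with an eBayes trend, 7 on the forward slide, 6 on the swapped one, 5 with the replicate block, 5 with independent arrays and 2 to 5 without a pair. The member median was 0.03 with the dyes as in the design text, where 24 rather than 17 probes would be higher, and 0.02 in the deposited values. The 15 member probes that differ between pairs became 7 in the deposited values and 8 with no term for dye. Calls in pairs 1, 2 and 3 (4, 9 and 14) were 0, 4 and 10 in the deposited values and 0, 6 and 9 with no term for dye. The 14 probes that follow the dye became 1 in the deposited values. What causes these shifts was not tested.

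With the signs taken by the dye fields, of 385 values of 26 named member probes under alternatives, 350 kept direction and side of the threshold. Both NRP1 probes, SEMA4B, SEMA4F, EFNA5 and the second SEMA6D probe kept their sign in all of these, though the dyes of the design text would turn every one: -3.44 to -1.69 and -2.46 to -1.08 for NRP1, -1.07 to -0.41, -1.05 to -0.76, 0.54 to 1.16 and 0.07 to 1.57. The others turned in at least 1. SEMA3E had -0.043 with an offset of 16, -0.032 without background correction and -0.052 on the forward slide. EFNA1 had 0.10 with median centring. In the deposited values PLXNB3 had 0.20, EPHA3 0.20 and EFNB3 0.0115. On the forward slide SEMA6C had 0.26, PLXNB2 -0.0145, PLXNB3 0.064, EPHA1 -0.47, EPHA2 0.35, EPHB2 0.082, EPHB3 -0.076, EFNA2 0.19, EFNB1 -0.10 and EFNB3 0.030. On the swapped slide NRP2 had -0.0126, PLXNA3 0.0164, EFNA1 0.050 and EFNA4 0.023. Without a pair, SEMA3E had -0.57 to 0.34, SEMA6A -0.33 to 0.64, SEMA6C -0.42 to 0.13, SEMA6D -0.88 to 1.35, PLXNB3 -0.055 to 0.021, EPHA1 -0.14 to 0.30, EPHA2 -0.38 to 0.48, EPHB2 -0.10 to 0.026, EPHB4 -0.58 to 0.0059, EFNA1 -0.26 to 0.12 and, on its second probe, -0.14 to 0.22, EFNA2 -0.38 to 0.13 and EFNB3 -0.092 to 0.061. The median over genes was -0.029 with the brightest probe and -0.027 with the median probe. The offset pulls ratios of dim probes toward 0, and 24 of the 41 tested probes had a reading not above the negative controls.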
